A study of Mus musculus with 5 samples.

Results

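The 10 Wnt ligand genes described here were Wnt1, Wnt10b, Wnt6, Wnt10a, Wnt3, Wnt9b, Wnt3a, Wnt9a, Wnt5a and Wnt7b, out of 21938 protein-coding genes on the nuclear chromosomes. They were chosen by name, but with earlier results of these data known, so their counts beside all genes are descriptive. Of the 10, 8 form 4 pairs of neighbours on a chromosome, namely Wnt1 with Wnt10b, Wnt6 with Wnt10a, Wnt3 with Wnt9b and Wnt3a with Wnt9a. All 10 were found in the GENCODE M21 annotation of GRCm38, and each was read as its gene body with 5 kb on each side, called its window here. The data were H3K27me3 ChIP-seq peaks from the mesenchyme of molars of wildtype C57BL/6 mice at postnatal day 3, with the dental epithelium taken off. There were 2 H3K27me3 libraries, 2 input libraries of chromatin that was not immunoprecipitated, and 1 library made with IgG, and every library came from the same genotype, strain and age. The sources do not say whether the H3K27me3 replicates came from separate animals, so an SD over them is the spread between 2 libraries.

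Wnt proteins are secreted ligands that bind Frizzled receptors and their co-receptors, and through β-catenin or other routes they control cell fate, growth and polarity. Signalling between dental epithelium and mesenchyme, in which Wnt ligands take part, shapes the crown and then the root of the tooth. H3K27me3, trimethylation of lysine 27 of histone H3, is laid down by Polycomb repressive complex 2, whose catalytic subunit is Ezh2, and is found at many silent developmental genes, which often have promoters rich in CpG. The neighbouring Wnt genes are remnants of an ancient Wnt cluster that was duplicated in vertebrates, so that Wnt10a and Wnt10b, Wnt9a and Wnt9b, and Wnt3 and Wnt3a are paralogues that lie in different pairs.

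In order to show what was called, sequences of peaks are given first, in the plus strand of GRCm38.p6 and 5′ to 3′, with each CpG in capitals. The peaks shown come from the input-called lists and lie outside the genes. They are a replicate 1 peak before the start of Wnt1 (chr15:98788648-98788869), the replicate 2 peak after Wnt1 that was the only peak at the 10 genes to share bases with a replicate 1 peak against input (chr15:98798158-98798255), a replicate 1 peak before Wnt10b (chr15:98778848-98779066), a replicate 2 peak before Wnt3 (chr11:103773650-103773740) and a replicate 1 peak before Wnt9b (chr11:103750637-103750861).
Wnt1 upstream, replicate 1: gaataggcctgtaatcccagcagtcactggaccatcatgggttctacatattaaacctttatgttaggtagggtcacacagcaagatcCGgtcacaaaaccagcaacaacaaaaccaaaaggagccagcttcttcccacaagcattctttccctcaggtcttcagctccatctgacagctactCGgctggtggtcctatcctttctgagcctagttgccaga
Wnt1 downstream, replicate 2: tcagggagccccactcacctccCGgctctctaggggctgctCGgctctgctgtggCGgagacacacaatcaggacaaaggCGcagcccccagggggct
Wnt10b upstream, replicate 1: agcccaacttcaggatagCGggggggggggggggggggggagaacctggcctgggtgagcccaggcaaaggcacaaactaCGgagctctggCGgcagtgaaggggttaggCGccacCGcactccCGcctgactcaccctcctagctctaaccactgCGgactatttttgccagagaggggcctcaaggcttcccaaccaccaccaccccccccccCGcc
Wnt3 upstream, replicate 2: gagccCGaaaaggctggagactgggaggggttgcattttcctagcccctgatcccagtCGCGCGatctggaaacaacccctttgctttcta
Wnt9b upstream, replicate 1: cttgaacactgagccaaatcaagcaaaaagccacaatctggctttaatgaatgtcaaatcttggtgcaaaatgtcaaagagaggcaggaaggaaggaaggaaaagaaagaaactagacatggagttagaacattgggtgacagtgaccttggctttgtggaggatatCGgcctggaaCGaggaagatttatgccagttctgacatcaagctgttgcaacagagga
The replicate 1 peak against input across the start of Wnt1 (chr15:98789835-98790031), which is not printed in full, held 11 CpG in 197 bases. Its first bases are the last bases of the stretch before the start of Wnt1 given below. The Wnt1 upstream peak held 2 CpG in 222 bases and the Wnt9b peak 2 in 225, while the Wnt10b peak held 8 in 219. The shorter replicate 2 peaks each held 4, in 98 bases after Wnt1 and in 91 bases before Wnt3. The sequences just before the annotated starts of Wnt1 (chr15:98789607-98789856), Wnt3 (chr11:103773925-103774149), Wnt6 (chr1:74771642-74771891) and Wnt9a (chr11:59306680-59306927) are shown for contrast, since Wnt1 and Wnt3 had peaks nearby and Wnt6 and Wnt9a had none. All these sequences were chosen after the peaks were seen.
Wnt1 before the start: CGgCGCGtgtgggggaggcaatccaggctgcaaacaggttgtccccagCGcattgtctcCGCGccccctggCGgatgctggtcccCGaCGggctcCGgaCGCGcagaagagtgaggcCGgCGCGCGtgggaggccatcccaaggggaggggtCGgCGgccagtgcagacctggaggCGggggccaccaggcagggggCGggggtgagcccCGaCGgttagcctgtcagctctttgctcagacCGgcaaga
Wnt3 before the start: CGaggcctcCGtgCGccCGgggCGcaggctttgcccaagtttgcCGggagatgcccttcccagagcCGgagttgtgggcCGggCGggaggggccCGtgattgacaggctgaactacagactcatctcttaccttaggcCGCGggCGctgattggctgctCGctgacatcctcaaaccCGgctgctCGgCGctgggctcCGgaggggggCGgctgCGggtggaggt
Wnt6 before the start: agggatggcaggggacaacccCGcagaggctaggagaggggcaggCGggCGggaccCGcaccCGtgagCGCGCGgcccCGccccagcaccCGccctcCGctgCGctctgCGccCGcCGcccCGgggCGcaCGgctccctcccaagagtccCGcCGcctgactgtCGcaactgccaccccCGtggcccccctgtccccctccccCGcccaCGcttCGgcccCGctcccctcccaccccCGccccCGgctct
Wnt9a before the start: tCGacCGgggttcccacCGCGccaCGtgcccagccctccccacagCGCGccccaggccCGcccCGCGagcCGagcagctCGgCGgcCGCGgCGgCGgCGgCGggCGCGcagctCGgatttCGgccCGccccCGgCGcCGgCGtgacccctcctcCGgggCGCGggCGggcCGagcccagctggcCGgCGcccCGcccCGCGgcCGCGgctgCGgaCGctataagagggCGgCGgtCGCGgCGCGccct
These stretches held 23 CpG in 250 bases at Wnt1, 20 in 225 at Wnt3, 28 in 250 at Wnt6 and 48 in 248 at Wnt9a.

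The authors called broad peaks with MACS in each H3K27me3 library against a control, which gave 3 lists. Replicate 1, with 30369351 tags after duplicate removal, had 22757 peaks against input and 24881 against IgG, and replicate 2, with 49947919, had 33379 against its input. Median fold enrichment, the ratio of tags in a peak to those of the control background, was 2.63, 2.66 and 2.45 in that order, and 35.1% to 44.5% of the peaks in a list lay at its lowest tag pileup, which was worth 4 tags in replicate 1 and 6 in replicate 2. A gene without a peak is therefore a gene below the calling cutoff at this depth and not a gene shown to lack the mark, and a share of cells carrying the mark cannot be told apart from an amount of mark per cell. With 2 libraries a two-sided exact permutation test of a difference cannot give a p-value below 0.5, so differences are set beside the spread between the libraries and none was called significant.

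At least 1 peak lay in the windows of 8 of the 10 Wnt genes in replicate 1 against input, compared with 25% of all protein-coding genes. Against IgG the number was also 8 (25.9% of all genes), and in replicate 2 it was 6 (35.7%). Wnt1, Wnt10b, Wnt3, Wnt9b, Wnt3a and Wnt7b, 6 of the 10, had a peak in both input-called replicates, beside 15.7% of all genes. Wnt10a and Wnt5a had peaks in replicate 1 with either control and none in replicate 2. Wnt6 and Wnt9a had no peak in any of the 3 lists, as did 51% of all genes. The median window of the Wnt genes, 32.6 kb, was longer than the 27.4 kb of all genes. Per 10 kb of window they held 0.962, 1.02 and 0.379 peaks in replicate 1 against input, replicate 1 against IgG and replicate 2, beside 0.105, 0.117 and 0.139 over all genes. These rates pool peaks over summed windows, 342.862 kb for the 10 genes and 1.29356e+06 kb for all 21938. Long genes weigh more in them, and by the mean the Wnt windows were shorter than those of all genes.

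Peaks at the annotated 5′ ends were rarer. Within 1 kb of the 5′ end, replicate 1 had a peak at 4 of the Wnt genes against input, namely Wnt1, Wnt10b, Wnt3 and Wnt9b (3.87% of all genes), and at 4 against IgG (4.52%). Replicate 2 had one at 3 (4.16%). Wnt1, Wnt10b and Wnt3, 3 of the 10, carried such a peak in both replicates, as did 228 of all 21938 genes, or 1.04%. Both counts rest on weakly enriched peaks. At a fold enrichment of 3 or more, which left 2040 and 522 peaks in the replicates, neither count kept any gene. At a p-value of 0.001 or lower, which left 744 and 3681, the count in the windows was 1 (Wnt3). The count at the 5′ ends was then 0. The share of all genes was not computed at these settings, so whether the loss is particular to the Wnt genes was not tested. At all 10 genes together there were 33 peaks in replicate 1 against input, 35 with IgG as control and 13 in replicate 2, and 13, 8 and 2 of these lay at the lowest pileup of their list. Their fold enrichment ran from 2.50 to 3.35, from 2.55 to 3.46 and from 2.40 to 2.77.

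**Figure D1:**
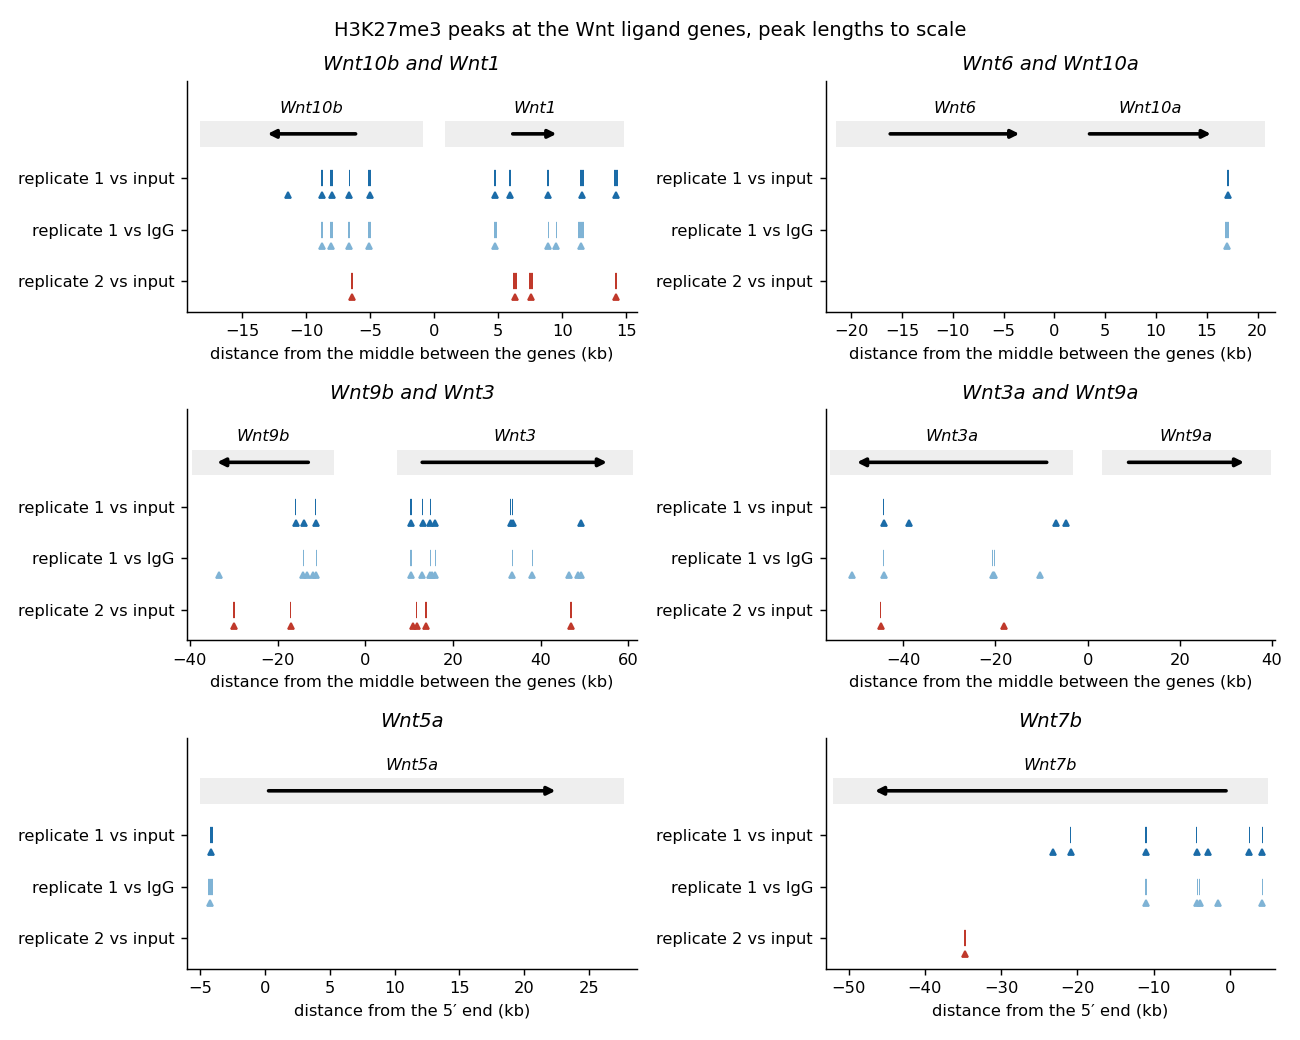
H3K27me3 peaks in the windows of the 10 Wnt genes, one panel per pair or gene, against distance in kb along the plus strand (from the middle between neighbours, or from the 5′ end of Wnt5a and Wnt7b). Arrows run from the 5′ to the 3′ end of each gene, grey boxes are the windows, bars are peaks to scale with a triangle under each, and the rows are the 3 lists. Peaks at Wnt10b, Wnt1, Wnt9b, Wnt3, Wnt3a and Wnt7b stand in all rows, those at Wnt10a and Wnt5a only in the replicate 1 rows, and the rows of Wnt6 and Wnt9a are empty.

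Wnt1, which specifies the midbrain and marks the neural crest lineage from which dental mesenchyme derives, was covered by peaks over 7.97% of its window in replicate 1 against input, 5.98% with IgG as control and 5.18% in replicate 2. The mean of the input-called replicates was 6.57 ± 1.97% (SD, n = 2). This was the highest share of the 10 genes in each list, and above that of 99.5%, 99.1% and 99.2% of all protein-coding genes. The gene lies on the plus strand of chromosome 15 from 98789857 to 98793837. It had 5 peaks in replicate 1 against input, 4 with IgG as control and 3 in replicate 2. A replicate 1 peak against input of 197 bp (98789835 to 98790031, fold enrichment 2.95) lay across the annotated 5′ end. A replicate 2 peak of 306 bp (98790157 to 98790462, 2.49-fold) began 300 bp inside the gene, so that 126 bp separated them. The 197-bp peak was not called against IgG, and the nearest IgG-called peak lay 944 bp from it. The strongest replicate 1 peak lay in an exon at 98792850 to 98792941, with a fold enrichment of 3.28. Downstream, the 98-bp replicate 2 peak whose sequence is given above lay inside a replicate 1 peak of 325 bp (98798017 to 98798341). No other replicate 2 peak at the 10 genes overlapped a replicate 1 peak called against input. The 325-bp peak was not called against IgG, and the nearest IgG-called peak lay 2337 bp from it. With IgG as control, no replicate 1 peak overlapped a replicate 2 peak at the 10 genes.

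Wnt10b, a ligand known for promoting bone formation over fat, lies on the minus strand of the same chromosome from 98770712 to 98778150, head to head with Wnt1 across 11.7 kb. It was covered over 4.09% in replicate 1 against input, 4.48% with IgG as control and 0.952% in replicate 2, so that the input-called mean was 2.52 ± 2.22% (SD, n = 2). Replicate 1 was high with either control and replicate 2 was low, with 5, 4 and 1 peaks. The single replicate 2 peak lay in the first part of the gene (98777517 to 98777682, 2.57-fold), 72 bp from a replicate 1 intronic peak at 98777326 to 98777445. The nearest replicate 1 peak before the start ended 698 bp upstream of it against input and 655 bp upstream against IgG. Over the whole 33.1-kb span of the pair, peaks took up 5.52%, 4.88% and 2.69% of the bases in the 3 lists.

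In order to compare neighbours, the covered share of the one was subtracted from that of the other in each library. Wnt10b was below Wnt1 in every list, with a difference of -3.87 percentage points in replicate 1 against input, -1.5 with IgG as control and -4.23 in replicate 2. The mean difference of Wnt10b minus Wnt1 was -4.05 ± 0.25 points (SD, n = 2), so the difference was larger than the spread between the replicates. It depended on the window in replicate 1. With 1 kb on each side of the gene bodies the differences were 2.52 in replicate 1 and -8.71 in replicate 2, and with 5 kb on each side of the 5′ ends they were 1.57 and -4.60. Only the sign in replicate 2 held with those windows. In replicate 1, the downstream peaks of Wnt1, 278 bp and 325 bp long and outside those windows, made up much of its 1114 covered bases. At a fold enrichment of 3 or more the mean difference was -0.33, made up of -0.658 in replicate 1 and 0 in replicate 2. Neither gene then kept a peak in replicate 2, and the replicate 1 value came from the 92-bp exon peak of Wnt1.

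Wnt3 and Wnt9b also face away from each other, across 24.3 kb of chromosome 11. Wnt3, which is needed for the primitive streak in the embryo, lies on the plus strand from 103774150 to 103817957, and Wnt9b, a ligand with roles in lip fusion and kidney tubule induction, lies on the minus strand from 103727364 to 103749821. Wnt3 was covered over 2.60%, 2.44% and 1.88% of its window in replicate 1 against input, replicate 1 against IgG and replicate 2 (mean of the input-called lists 2.24 ± 0.509%, SD, n = 2), by 7, 10 and 4 peaks. Wnt9b was covered over 1.86%, 1.88% and 1.62% (1.74 ± 0.168%), by 3, 5 and 2 peaks. Both genes were thus present in all lists, and their shares varied less between the lists than those of the Wnt1 and Wnt10b pair.

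Several peaks at Wnt3 lay close to each other in the replicates without sharing bases. Before the start, a replicate 1 peak of 483 bp (103772204 to 103772686) was followed after 169 bp by a replicate 2 peak (103772855 to 103772982, 2.67-fold). The replicate 2 peak nearest to the start, shown above, ended 410 bp before it. In the gene, replicate 1 had a peak at 103774958 to 103775243 and replicate 2 a peak 429 bp further in, at 103775672 to 103776062. Wnt3 held the most enriched peak of the 10 genes in all 3 lists, 3.35-fold in replicate 1 against input (103811125 to 103811190), 3.46-fold against IgG (103811115 to 103811190) and 2.77-fold in replicate 2 (103808640 to 103809042). These were intronic, and the first and last were 2083 bp apart. At Wnt9b the replicate 1 peak nearest to the start ended 816 bp before it against input and 202 bp before it against IgG. The nearest replicate 2 peak lay 4756 bp inside the gene.

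The share of Wnt3 exceeded that of Wnt9b by 0.741 points in replicate 1 against input, 0.558 with IgG as control and 0.259 in replicate 2. The mean difference of 0.50 ± 0.341 points (SD, n = 2) was larger than the spread, but its direction turned with the window. With 1 kb on each side the values of Wnt3 minus Wnt9b were -0.304 and -0.223 in the replicates, a mean of -0.263. The sequence between the genes was reached by 5, 5 and 3 peaks in the lists, and the 100.6-kb span from flank to flank was covered over 2.56%, 2.09% and 1.61%.

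Wnt3a and Wnt9a, on chromosome 11 at another site, differed in that peaks were called at Wnt3a only. Wnt3a, which drives somite and tail formation, lies on the minus strand from 59248033 to 59290752, and Wnt9a, which takes part in joint formation, lies on the plus strand from 59306928 to 59333552. Wnt3a was covered over 0.840%, 0.855% and 0.607% of its window in replicate 1 against input, replicate 1 against IgG and replicate 2 (0.724 ± 0.165%, SD, n = 2), by 4, 5 and 2 peaks. Wnt9a stood at 0% in each list, and the nearest peaks lay 12.7 kb, 9.25 kb and 26.1 kb upstream of its 5′ end. The difference was therefore that of Wnt3a itself, 0.840 and 0.607 points in the input-called replicates, and larger than its spread of 0.165. The Wnt3a peaks were not at the promoter. In replicate 1 against input the nearest ended 1120 bp before the 5′ end, and in replicate 2 the nearest lay 9.95 kb inside the gene. Near its 3′ end, intronic peaks lay close together in the lists, at 59254511 to 59254692 in replicate 1 against input (2.85-fold) and at 59254505 to 59254692 against IgG (3.28-fold). The replicate 2 peak at 59253893 to 59254097 (2.42-fold) shared no bases with them. It lay 414 bp from the first and at the lowest pileup of its list.

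Wnt6 and Wnt10a are arranged in tandem on the plus strand of chromosome 1, from 74771892 to 74785322 and from 74791516 to 74804179, and were nearly free of peaks. Wnt6 is a ligand of many epithelia, and Wnt10a is a ligand of dental tissues whose mutation in humans causes missing teeth. Wnt6 was at 0% in each list, with the nearest peaks 33.5 kb and 33.3 kb downstream of its 5′ end in replicate 1 and 47.0 kb upstream in replicate 2. Wnt10a was at 0.777% in replicate 1 against input, 1.69% with IgG as control and 0% in replicate 2 (0.388 ± 0.549%, SD, n = 2). Its single peak lay beyond the 3′ end of the gene, at 74805431 to 74805606 against input, with a fold enrichment of 2.50, the lowest at the 10 genes in that list. The difference of Wnt10a minus Wnt6, 0.388 ± 0.549 points, was smaller than the spread between the replicates. Their windows share 3807 bp, and with windows ended midway between the genes the mean difference was 0.424.

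**Figure D2:**
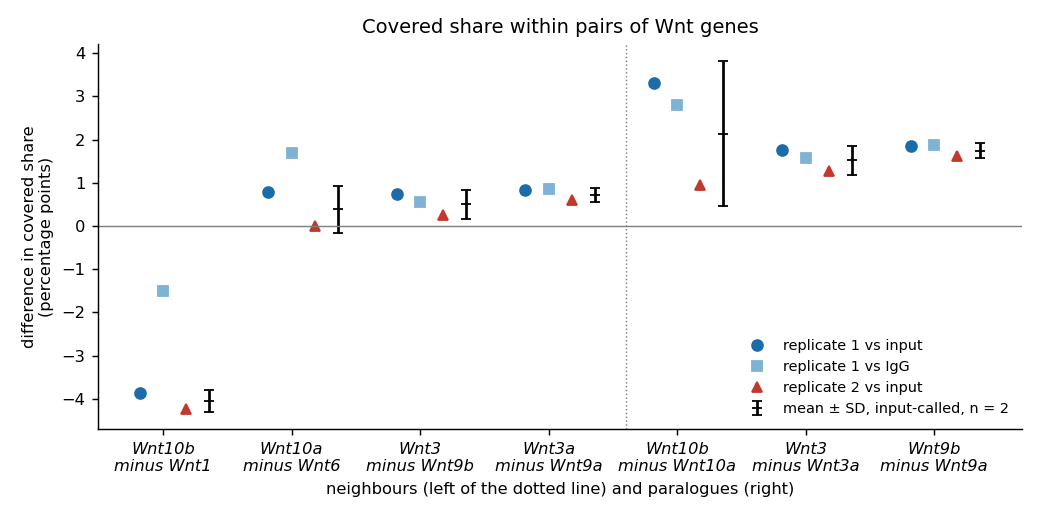
Differences in the share of the window covered by peaks, in percentage points, within the 4 neighbour pairs and the 3 paralogue pairs. Points are the 3 lists and the bars to their right are the mean ± SD of the input-called replicates (n = 2). Wnt10b minus Wnt1 lies below 0 in each list, from -4.23 to -1.5, and Wnt10a minus Wnt6 reaches 0 in replicate 2.

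The genes without a neighbouring ligand were Wnt5a and Wnt7b. Wnt5a, the main non-canonical ligand of dental mesenchyme (chromosome 14, plus strand, 28504750 to 28527448), was covered over 0.581% and 1.05% in replicate 1 against input and IgG and 0% in replicate 2 (0.291 ± 0.411%, SD, n = 2). Its peak lay 4034 bp before the 5′ end with either control, at 28500527 to 28500716 against input, and the nearest replicate 2 peak was 45.9 kb away. Wnt7b, a ligand of oral and other epithelia (chromosome 15, minus strand, 85535437 to 85582473), was covered over 1.15%, 1.09% and 0.480% (0.815 ± 0.474%), by 7, 5 and 1 peaks. In replicate 1 these lay on both sides of the 5′ end, the nearest 2483 bp before it against input and 1543 bp inside the gene against IgG. The single replicate 2 peak lay 34.7 kb inside the gene and 11451 bp from the nearest replicate 1 peak, so the replicates shared the gene and not the place.

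**Figure D3:**
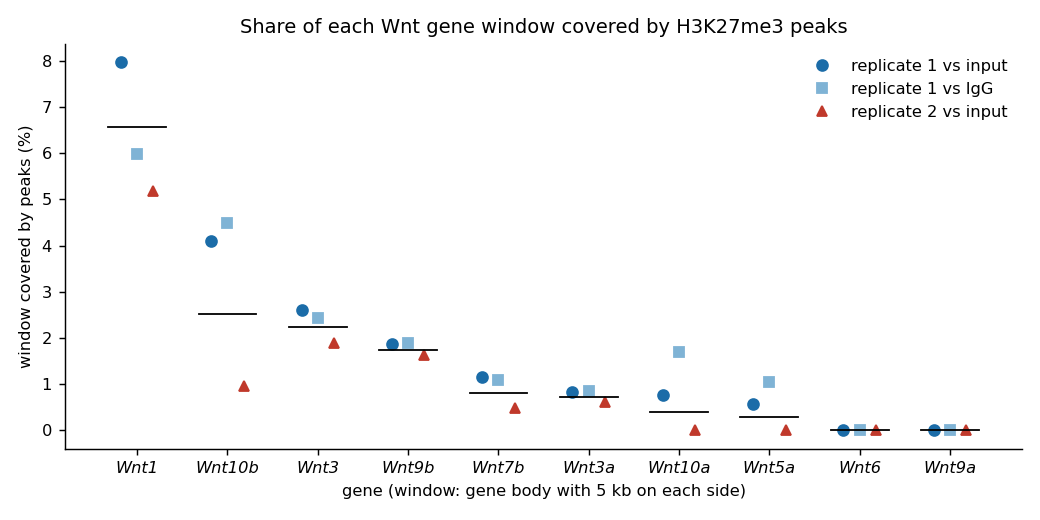
Share of each window covered by H3K27me3 peaks (%), for the 10 Wnt genes in order of their mean. Symbols are the 3 lists and the black lines are the means of the input-called replicates (n = 2). Wnt1 is highest in each list (5.18% to 7.97%), and Wnt6 and Wnt9a are at 0%.

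In the order of their means the genes were Wnt1, Wnt10b, Wnt3, Wnt9b, Wnt7b, Wnt3a, Wnt10a and Wnt5a, followed by Wnt6 and Wnt9a. The values of Wnt1 in the input-called replicates did not overlap those of Wnt10b. Wnt3, at its lowest 1.88%, lay just above Wnt9b, at its highest 1.86%, and Wnt9b did not overlap Wnt7b. The values of Wnt10b, from 0.952% to 4.09%, overlapped those of Wnt3, Wnt9b and Wnt7b, and further overlaps were of Wnt7b with Wnt3a, of Wnt3a with Wnt10a and of Wnt10a with Wnt5a, so their order was not separated from the spread. The median of the 10 means was 0.769%, beside 0% for all protein-coding genes.

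The pairs also allowed paralogues to be set side by side, a comparison that was added after the values were seen. Wnt10b exceeded Wnt10a by 3.32 points in replicate 1 against input and by 0.952 in replicate 2, with a mean of 2.13 ± 1.67 (SD, n = 2). Wnt3 exceeded Wnt3a by 1.76 and 1.28 points (1.52 ± 0.344), and Wnt9b exceeded Wnt9a by 1.86 and 1.62 points (1.74 ± 0.168). In each of the 3 paralogue pairs the higher gene was thus in the Wnt1 and Wnt10b pair or the Wnt3 and Wnt9b pair. At a fold enrichment of 3 or more this was lost, with differences of 0 for Wnt10b minus Wnt10a, -0.0572 for Wnt3 minus Wnt3a and 0 for Wnt9b minus Wnt9a.

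Positions within the windows were then compared between the lists. Of the 33 replicate 1 peaks against input, 9 lay upstream, 3 in exons, 18 in introns and 3 downstream, and the 35 against IgG divided into 7, 3, 22 and 3. The 13 replicate 2 peaks divided into 2, 3, 7 and 1. Peaks centred within 5 kb of a 5′ end made up 63.6%, 62.9% and 53.8% of the peaks in the lists, while those bases made up 29.2% of the windows. At the level of bases the replicates met only once, and only with input as control. Of the 33 replicate 1 peaks, 1 overlapped a replicate 2 peak, or 3.03%, beside 2.85% of all replicate 1 peaks. Proximity gave other values: 18 of the 33 had a replicate 2 peak within 5 kb (54.5%, beside 31.8% of all), and of the 13 replicate 2 peaks 8 had a replicate 1 peak within 1 kb (61.5%, beside 7.47%) and 10 within 5 kb (76.9%, beside 16.8%). The median gap from a replicate 2 peak to the nearest replicate 1 peak was 964 bp at the Wnt genes and 42.5 kb over all peaks. From replicate 1 to replicate 2 the values lay closer together, with a median gap of 2849 bp beside 13.4 kb and with 24.2% beside 12.7% of peaks within 1 kb. The values over all peaks include peaks outside genes, whereas the Wnt windows were dense in peaks. They held 0.962 replicate 1 peaks against input per 10 kb, beside 0.105 over all gene windows. The part of this density in the short gaps was not tested, so they are not a measure of agreement on position. Peaks of 1 gene share their locus and are not independent, and no test was made of these shares. Replicate 1 called against its 2 controls, which uses the same H3K27me3 tags, gave overlapping peaks in 21 of 33 cases (63.6%, beside 51.0% of all).

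The 5′ ends of the Wnt genes all held more CpG than the median of all genes, and CpG was not used to choose them. Within 1 kb of the 5′ end they held 66 to 176 CpG with a median of 105.5, and the median of all protein-coding genes was 61. The order did not follow that of the peaks. Wnt9a, without a peak, had the most, 176 CpG, a number reached by 2.27% of promoters. Several others were ordinary, since the numbers of Wnt10a, Wnt1 and Wnt5a were reached by 47.3%, 38.0% and 33.3% of promoters. Wnt6, also without a peak, had 120, as many as Wnt7b, while Wnt1 had 79, Wnt10b 96, Wnt3 113, Wnt9b 98, Wnt3a 123, Wnt5a 86 and Wnt10a 66. In the RefSeq promoter set of GRCm38.p6, which spans 300 bases around a start and matched 7 of the 10 genes, Wnt9a held 58 CpG, reached by 0.110% of 32851 promoters. It was followed by Wnt3a with 45, Wnt6 with 31, Wnt9b with 29, Wnt1 with 26, Wnt3 with 24 and Wnt10b with 18, the last reached by 29.7%. The peaks themselves varied in CpG density. Their median was 13.3 CpG per kb in replicate 1 against input, 14.3 with IgG as control and 18.8 in replicate 2, the windows ranged from 15.3 to 26.8 per kb, and 15 of 33, 14 of 35 and 7 of 13 peaks were denser than the window they lay in.

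**Figure D4:**
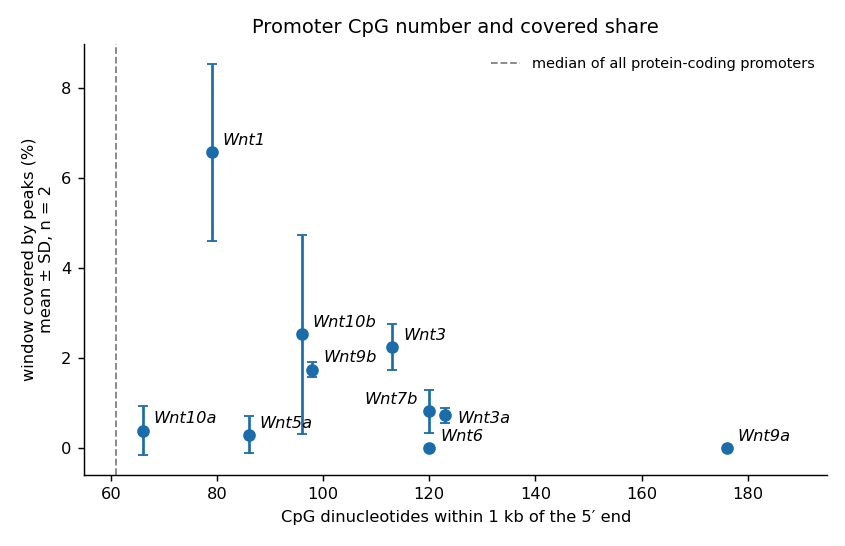
Number of CpG dinucleotides within 1 kb of the 5′ end (horizontal axis) and share of the window covered by peaks (vertical axis, %, mean ± SD of the input-called replicates, n = 2) for the 10 Wnt genes. The dashed line is the median of all protein-coding promoters, 61. Wnt9a has the most CpG, 176, and a share of 0%.

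In order to place the ligands within their pathway, 70 other Wnt pathway genes were read in the same way. Of these, 27 had a peak in their window in replicate 1 against input (25% of all genes), 19 with IgG as control (25.9%) and 29 in replicate 2 (35.7%), and 15 had one in both input-called replicates (15.7%). Among the 9 other Wnt ligands this held for 2, Wnt2 (mean share 0.713 ± 0.266%, SD, n = 2) and Wnt8b (1.72 ± 0.572%), while Wnt2b, Wnt5b and Wnt8a had none in any list. Porcn and Wls, which lipidate and escort Wnt proteins for secretion, had none either, as did 51% of all genes. Of 16 receptors, Fzd9 (2.11 ± 1.48%) and Fzd4 (0.881 ± 0.538%) had a peak in both replicates, and no peak was called against IgG at Fzd9.

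Secreted agonists and antagonists were read next, beside the same 15.7% of all genes with a peak in both replicates. Of the 8 agonists, the R-spondins and their receptors among them, 5 had a peak in both replicates, namely Rspo1 (2.28 ± 0.167%), Rspo3 (0.937 ± 0.612%), Lgr5 (0.546 ± 0.155%), Rspo2 (0.0894 ± 0.0857%) and Lgr6 (0.0443 ± 0.0134%). The windows of Lgr5, Lgr6 and Rspo2 are long, at 147.47 kb, 131.976 kb and 160.033 kb, so a peak anywhere in them is a weaker call than at a short gene. No peak was called against IgG at Rspo2 or Lgr6. Rspo1 was covered over 2.16% in replicate 1 against input, 1.71% with IgG as control and 2.40% in replicate 2, with a peak 143 bp inside the gene in replicate 1 and 376 bp before the start in replicate 2. Of the 17 antagonists, 4 had a peak in both: Sost (4.56 ± 1.77%), which encodes the osteocyte inhibitor sclerostin, Notum (1.45 ± 1.07%), an enzyme that removes the lipid of Wnt proteins, Sfrp5 (0.851 ± 0.490%) and Frzb (0.436 ± 0.211%). Sost was covered over 3.31%, 1.63% and 5.81% in the lists, and only Wnt1 of the ligands had a higher mean share. At Frzb no peak was called against IgG.

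Among the 18 intracellular components, 2 had a peak in both replicates (15.7% of all genes), Lef1 (0.306 ± 0.0873%) and Gsk3b (0.105 ± 0.110%). Their windows are also long, at 123.886 kb and 167.084 kb, so these are weaker calls as well. None of the 18 had a peak against IgG (25.9% of all genes). Ctnnb1 and Axin2 were among the 8 with none in any list, as were 51% of all genes. Within 1 kb of the 5′ end in both replicates there were peaks at 3 of the 70 genes, Wnt8b, Fzd4 and Rspo1 (1.04% of all genes). With IgG as control, replicate 1 kept such a peak at Wnt8b only. The nearest then lay 8.41 kb from the 5′ end at Fzd4 and 2.58 kb at Rspo1. Of ligands of other families, 3 of 10 BMP genes and 7 of 18 Fgf genes had a peak in the window in both replicates (15.7% of all genes). None had one within 1 kb of the 5′ end in both (1.04% of all genes). In single replicates against input, 3 BMP genes had such a peak in replicate 1 and 3 in replicate 2. For the Fgf genes these numbers were 4 and 3.

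**Figure D5:**
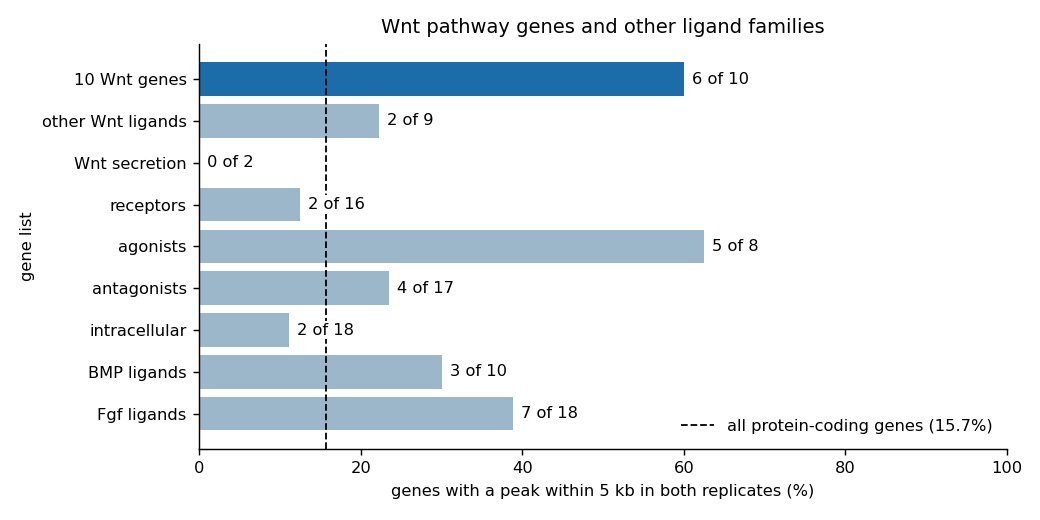
Percentage of genes with an H3K27me3 peak within 5 kb in both input-called replicates, for the 10 Wnt genes, other Wnt pathway lists and the BMP and Fgf ligands. Numbers are genes with a peak of genes read, and the dashed line is the share of all protein-coding genes, 15.7%. The 10 Wnt genes (6 of 10) and the agonists (5 of 8) stand highest, and the lists are small.

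Peaks were also read at marker genes, where H3K27me3 peaks do not measure expression and do not identify the tissue. Of 10 genes of dental mesenchyme, 6 had a peak in the window in both replicates (Pax9, Barx1, Lhx6, Lhx8, Runx2 and Twist1), beside 15.7% of all genes. This was the same count as at the 10 Wnt genes. Msx2 and Col1a1 had none in any list, as did 51% of all genes. Of 9 epithelial genes, 4 had none in any list (Krt14, Krt5, Amelx and Enam), and Trp63 had a peak in both replicates. The part of remaining epithelial cells in the peaks at the Wnt genes was not tested.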

How the data were processed

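The 5 ChIP-seq libraries came from molar mesenchyme of C57BL/6 wildtype pups, 3 days old. Per the methods and headers, reads were aligned to GRCm38 (mm10) with BWA, reads that mapped to 1 place only were retained and sorted with SAMtools, and the authors called broad peaks with MACS2 2.1.1 at a p-value of 0.005, each H3K27me3 library against 1 control and without pooling. MACS used fragment lengths of 46 bp and 71 bp for replicates 1 and 2, shorter than their tags of 49 bp and 74 bp, which narrows peaks. Depth and tag length differed between the replicates and cannot be told apart from them.

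For each peak the authors deposited a pileup, a signal of mean overlapping tags with the larger library scaled to the smaller, a fold enrichment, the ratio of pileup to control background, and a p-value on a −log10 scale. Peaks were intersected with GENCODE M21 genes on GRCm38.p6 (overlap of at least 1 base), with Python 3.11.15 and NumPy 2.4.6. No peak ran past a chromosome end. The covered share is the percentage of bases of a gene body with 5 kb on each side that lay in peaks. On simulated peaks with known positions, the peak counts, covered bases and nearest distances of 500 windows gave 0 mismatches with direct counting. All 10 genes were named, together with those of 70 further Wnt pathway genes with a peak in both input-called lists, at most 15. Other genes named from the lists, mostly as having no peak, were chosen after their values were seen. The members and lists were chosen with earlier results of these data known. Alternatives were the window, fold enrichment, p-value, control, peak number and leaving out a replicate. The result of 1 of the listed marker genes is not reported here.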

Additional observations from a re-analysis of the deposited data

How the results depend on the processing

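Results were recomputed under other settings, and the values are means of the input-called replicates unless stated. With 1 kb on each side of the gene bodies, Wnt10b minus Wnt1 was -3.10 points and Wnt3 minus Wnt9b reversed to -0.263, and with 10 kb they were -3.08 and 1.07. At a fold enrichment of 3 or more, which left 2040 and 522 peaks, the differences were -0.33 for Wnt10b minus Wnt1, 0.0613 for Wnt3 minus Wnt9b and 0.119 for Wnt3a minus Wnt9a, Wnt3 minus Wnt3a reversed to -0.0572, and 0 genes had a peak in the window or within 1 kb of the 5′ end in both replicates. At a p-value of 0.001 or lower, which left 744 and 3681 peaks, Wnt10b minus Wnt1 was -0.33, Wnt3a minus Wnt9a was 0, and the counts were 1 gene in the window (Wnt3) and 0 at the 5′ end. The differences given at a fold enrichment of 3 or more, and the -0.33 at this p-value, came from replicate 1 alone and were 0 in replicate 2. With replicate 1 called against IgG, Wnt10b minus Wnt1 was -2.86. With replicate 2 reduced to the peak number of replicate 1, Wnt3 minus Wnt9b was 0.953. Within 500 bp of the 5′ end the count was 1 gene (Wnt1). With 5 kb on each side of the 5′ end, a window chosen after seeing the data, Wnt10b minus Wnt1 was -1.51, Wnt3 minus Wnt9b was 3.71, and 4 genes (Wnt1, Wnt10b, Wnt3 and Wnt9b) had a peak in both replicates. The cause of these changes was not tested. Wnt10a minus Wnt6 kept its sign in 6 of 11 alternatives and was at 0 in 5. In those given as shares it moved by less than its SD of 0.549 points. Its main value was only 0.388, so a move to 0 also passes, and stability cannot be read from this. Leaving out a replicate gave -4.23 to -3.87 for Wnt10b minus Wnt1, 0 to 0.777 for Wnt10a minus Wnt6, 0.259 to 0.741 for Wnt3 minus Wnt9b and 0.607 to 0.840 for Wnt3a minus Wnt9a, and counts of 6 to 8 genes in the window and 3 to 4 at the 5′ end.

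No paired analysis was possible because no result comes from a test: each neighbour difference was already taken within a library, and the exact sign permutation over 2 libraries cannot give a p-value below 0.5. Depth limits single peaks, since the lowest pileup is worth 4 tags in replicate 1 and 6 in replicate 2.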
